A study of Mus musculus with 6 samples.

Results

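The genes described here are 9 secreted and granule genes of intestinal goblet cells, taken by name: Muc2, Tff3, Zg16, Retnlb, Fcgbp, Muc13, Guca2a, Guca2b and Sytl2. A gene was measured where a probe set on the array was annotated to that gene alone, and where several were, the one with the highest mean over all arrays was used. By this rule 8 of the 9 had a value, out of 19938 genes measured. Fcgbp, which encodes a large mucus protein that binds the Fc part of IgG, has no value here because its 3 probe sets were also annotated to other genes.

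RNA came from isolated small-intestinal epithelium of E18.5 mouse fetuses, that is, shortly before birth. The 3 cKO arrays held RNA of mice carrying conditional knockouts of both Gata4 and Gata6, which encode zinc-finger transcription factors, and the 3 control arrays held RNA of mice labelled only as controls. Which Cre was used, which exons were removed and the genotype of the controls are not stated in the sources used here. Whether each array held RNA of its own animal is likewise not stated. The p-values describe no more than the spread among these arrays, part of which may be technical.

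Goblet cells are secretory cells scattered through the intestinal lining. They pack gel-forming mucin into granules and release it with small proteins that shape the gel or act on microbes, and the released gel separates the epithelium from the gut contents. Some of the genes often listed as goblet cell products, among them Muc13 and the guanylin genes, are also made by other epithelial cells.

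Values are deposited log2 levels, and a change is the cKO mean minus the control mean on that scale with its standard error. A gene passed where limma's p-value, adjusted by Benjamini-Hochberg over all 19938 genes, was under 0.05. Array medians lay between 7.73 and 7.84. The knockout did not show as a loss of either transcript: Gata4 had levels of 11.34, 11.39 and 11.51 on the arrays labelled cKO, against 10.95, 10.93 and 10.96 on the control arrays, and Gata6 had 12.72, 12.69 and 12.72 against 12.23, 12.28 and 12.27. Each probe set sums probes along its gene and the deleted parts are not given, so directions below rest on the labels. Array cKO 2 stood apart from its group, with a correlation over genes of 0.956 with cKO 1 and 0.955 with cKO 3, while those arrays correlated at 0.988. Control 3 differed from the other 5 arrays in sex-linked transcripts, with Xist at 6.18 and Eif2s3y at 9.36. Epithelial markers averaged 12.47, 12.32 and 12.48 on cKO arrays and 12.20, 12.21 and 12.17 on control arrays. None of these 8 markers was below 11.6 on any array, and 3 of them were called higher in cKO.

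The goblet cell products did not move together. Muc2, Sytl2, Guca2a and Tff3 were higher in the cKO epithelium, Zg16 and Muc13 were lower, and Guca2b and Retnlb did not pass. The 4 that were higher compare with 5.52% of all genes called higher, and the 2 that were lower with 7.42% called lower, or 12.9% in either direction. Among the 8, every cKO array lay above every control array for 4 genes and below for 3, and over all genes these patterns were seen in 14.3% and 18.3%. The median change of the 8 was 0.72, against -0.01 over all genes. Of all genes 1101 were called higher and 1479 lower, and with arrays centred on the epithelial markers 666 were higher and 5616 lower. Under that centring Guca2b joined the members called lower, at -0.65. In bulk RNA, fewer cells of a type and less RNA per cell cannot be told apart.

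**Figure D1:**
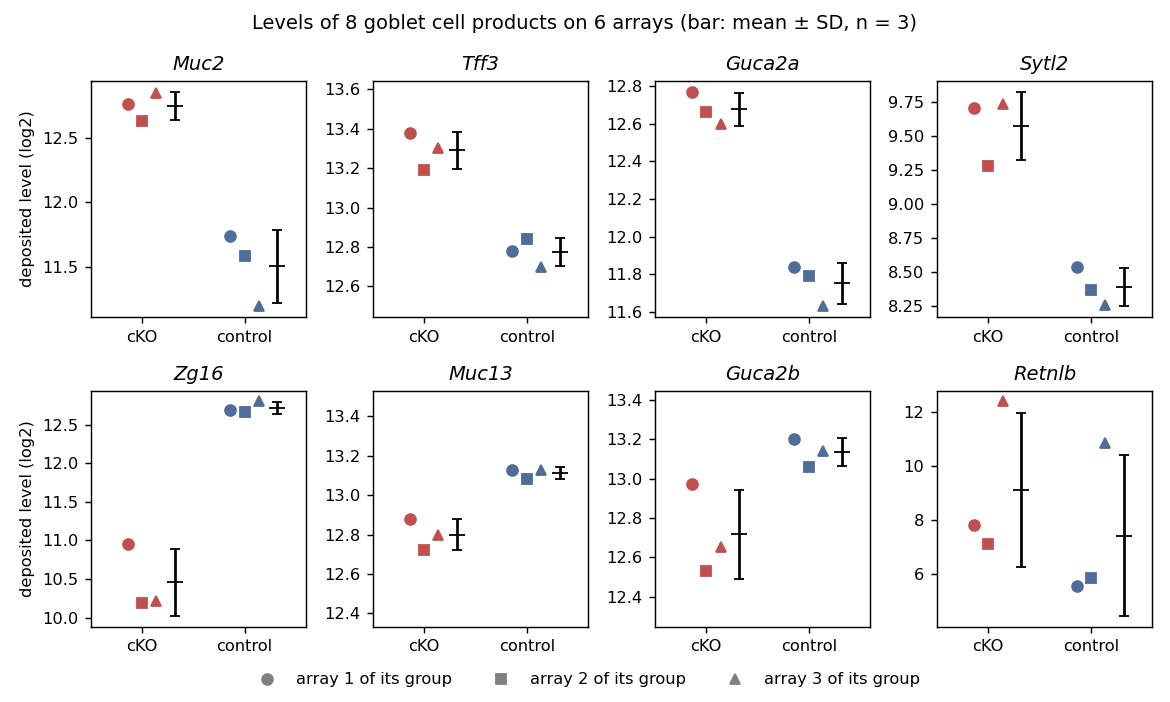
Deposited log2 level of each measured gene on every array, cKO left and control right, with symbols for the 3 arrays of a group and bars for the mean ± SD (n = 3); each panel has its own scale. The cKO points of Muc2, Tff3, Guca2a and Sytl2 lie above all control points, those of Zg16, Muc13 and Guca2b lie below, and those of Retnlb overlap, with cKO 3 at 12.40 and control 3 at 10.87.

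Muc2 encodes the gel-forming mucin that is the main structural protein of intestinal mucus. Its levels were 12.77, 12.63 and 12.85 on the cKO arrays, against 11.74, 11.58 and 11.19 on the control arrays. All cKO arrays were higher, and the control arrays were the more scattered group, with control 3 lowest. Muc2 averaged 12.75 ± 0.11 in cKO and 11.50 ± 0.28 in control epithelium (SD, n = 3 each), a change of 1.25 ± 0.15 or 2.37-fold (limma, adjusted p = 0.0037). It stayed past the threshold with each array left out, with changes between 1.09 and 1.37. The change was 1.15 without control 3 and cKO 2 together (adjusted p = 0.00633).

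The sequence before the Muc2 start is shown because Gata4 and Gata6 are the genes knocked out and bind sites of the GATA type. It was taken from the RefSeq promoter table of GRCm38.p6, which held 5 of the 9 genes (Muc2, Muc13, Fcgbp, Guca2a and Guca2b), and covers the 250 bases before the start at chr7:141690090-141690339 on the plus strand. Capitals mark matches on either strand to a GATA-type motif, searched as AGATAA, with G as its last letter (AGATAG), with T as its first letter (TGATAA) and with both changes (TGATAG).
Muc2: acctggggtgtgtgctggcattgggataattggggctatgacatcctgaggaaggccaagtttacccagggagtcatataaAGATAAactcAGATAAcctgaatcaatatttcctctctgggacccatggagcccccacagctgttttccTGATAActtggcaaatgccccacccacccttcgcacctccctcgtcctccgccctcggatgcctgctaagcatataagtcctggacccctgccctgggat
The window held 3 such matches, beginning 169, 159 and 100 bases before the start. At least 1 match was present in 7322 of 27025 windows of the same length, or 27.1%. How many windows held 3 or more was not counted. The letters CAGCTG, an E-box of the kind bound by the goblet lineage factor Atoh1, occurred once, 112 bases before the start, and were present in 12.8% of all windows. None of the motifs searched was found in the first of the 2 Muc13 windows, and the Fcgbp window held CAGCTG once and no GATA-type match. A match of letters is a description of the sequence and no record of binding.

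Tff3 encodes a trefoil peptide that goblet cells release with the mucin and that takes part in epithelial repair. It had levels of 13.38, 13.19 and 13.30 on the cKO arrays and 12.78, 12.84 and 12.70 on the control arrays. The groups did not overlap and each was tight. The change was 0.52 ± 0.08, or 1.43-fold (limma, adjusted p = 0.0101), smaller than that of Muc2 on the log2 scale. It passed with each array left out, the changes running between 0.47 and 0.57, and without control 3 and cKO 2 together (0.53, adjusted p = 0.0391). It did not pass without control 3 and cKO 3 together (0.48, adjusted p = 0.142).

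Zg16 encodes a small lectin of the mucus that binds bacterial cell wall sugars, and it is also known from zymogen granules of the pancreas. Its levels were 10.96, 10.19 and 10.22 on the cKO arrays, against 12.69, 12.66 and 12.80 on the control arrays. The control arrays lay within a narrow band, and the highest cKO array was still 1.70 below the lowest control array. Zg16 averaged 10.46 ± 0.44 in cKO and 12.72 ± 0.07 in control epithelium (SD, n = 3 each), a change of -2.26 ± 0.21, which is 4.79-fold lower (limma, adjusted p = 0.00138). The size of this change exceeded that of 99.5% of all genes. It passed with each array left out, with changes between -2.51 and -2.13.

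Markers of pancreatic acinar cells did not follow the groups: none of 6 passed, and they averaged 10.66, 10.32 and 9.43 on the cKO arrays and 10.88, 8.97 and 7.36 on the control arrays. The brightest of them, the protease gene Ctrb1, had levels of 12.55, 12.35 and 11.30 in cKO and 12.67, 11.27 and 9.92 in control epithelium. Acinar markers were lowest on control 3, while Zg16 was highest there. The part of pancreatic cells in the level of Zg16 was not tested. The change of Zg16 was -2.09 without control 3 and cKO 2 together (adjusted p = 0.0122).

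Muc2 and Zg16, both parts of the secreted mucus, separated the groups in opposite directions. With each gene centred on its control mean, Muc2 minus Zg16 was 3.02, 3.65 and 3.84 on the cKO arrays, against 0.26, 0.13 and -0.40 on the control arrays. The changes of both genes differed by 3.51 on the log2 scale. The pair was chosen with its changes known, so this is a description with no test.

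Retnlb encodes a resistin-like protein that goblet cells secrete and that acts on bacteria. Its levels were 7.82, 7.13 and 12.40 on the cKO arrays, against 5.57, 5.84 and 10.87 on the control arrays. The groups overlapped because the third array of each group was far above the other arrays of that group. Within groups the pooled SD was 2.93, larger than that of 99.97% of genes, whose median was 0.131. The change was 1.69 ± 1.88 with a 95% interval of -2.84 to 6.22 (limma, adjusted p = 0.634), so neither a large rise nor a large fall is outside it. The estimate was 3.41 without control 3 and 0.05 without cKO 3. With both of these arrays left out it was 1.77 (adjusted p = 0.0527), and without control 3 and cKO 2 it was 4.41 (adjusted p = 0.166).

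Muc13 encodes a mucin that spans the membrane of epithelial cells and lines their surface. It had levels of 12.88, 12.72 and 12.80 on the cKO arrays and 13.13, 13.08 and 13.13 on the control arrays. All cKO arrays were lower, by a small margin. The change was -0.31 ± 0.07, which is 1.24-fold lower (limma, adjusted p = 0.0401). The call was lost with any 1 of the 6 arrays left out, where the change ran between -0.35 and -0.27 and the adjusted p between 0.0508 and 0.122. It was -0.27 without control 3 and cKO 2 together (adjusted p = 0.204).

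Guca2a and Guca2b encode guanylin and uroguanylin, peptides that are released into the gut and act on the receptor guanylyl cyclase C to change salt and water transport. In the gene order of the RefSeq table they are next to each other among protein-coding genes on chromosome 4. The windows before their starts are shown side by side because the changes of these adjacent genes differed in sign, though that of Guca2b did not pass. The part of these windows in the changes was not tested. They lie at chr4:119637482-119637731 on the plus strand for Guca2a and chr4:119658946-119659195 on the minus strand for Guca2b (GRCm38.p6), with GATA-type matches in capitals as for Muc2.
Guca2a: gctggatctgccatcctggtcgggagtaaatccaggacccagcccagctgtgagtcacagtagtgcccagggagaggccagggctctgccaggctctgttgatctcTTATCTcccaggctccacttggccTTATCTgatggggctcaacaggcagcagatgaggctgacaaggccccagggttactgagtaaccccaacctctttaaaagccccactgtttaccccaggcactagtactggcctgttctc
Guca2b: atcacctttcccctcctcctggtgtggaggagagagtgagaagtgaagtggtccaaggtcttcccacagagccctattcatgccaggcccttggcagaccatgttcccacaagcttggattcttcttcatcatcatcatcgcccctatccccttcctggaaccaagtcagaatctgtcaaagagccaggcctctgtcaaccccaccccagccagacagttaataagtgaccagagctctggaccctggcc
The Guca2a window held 2 matches, both read as TTATCT on the printed strand, 144 and 120 bases before the start. At least 1 match was present in 27.1% of all windows, and how many held 2 or more was not counted. The Guca2a window also held CAGCTG at 206 bases before the start. At 34 bases it held TGTTTAC, a forkhead-type motif found in 3.09% of all windows. In the Guca2b window none of the letters searched was found, which says only that they are not in these 250 bases.

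Guca2a had levels of 12.77, 12.66 and 12.60 on the cKO arrays, against 11.84, 11.79 and 11.63 on the control arrays. The groups were tight and did not overlap. The change was 0.92 ± 0.09, or 1.90-fold (limma, adjusted p = 0.00156). It passed with each array left out, with changes between 0.86 and 0.97, and without control 3 and cKO 2 together (0.87, adjusted p = 0.0133).

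Guca2b had levels of 12.97, 12.53 and 12.65 on the cKO arrays and 13.20, 13.06 and 13.14 on the control arrays. Every cKO array was lower, cKO 1 by only 0.09 from the nearest control array. The change was -0.42 ± 0.13 with a 95% interval of -0.72 to -0.12, and it did not pass (limma, adjusted p = 0.0847). It passed without cKO 1, at -0.54 (adjusted p = 0.0220), and with none of the other 5 arrays left out. With each gene centred on its control mean, Guca2a minus Guca2b was 1.18, 1.51 and 1.33 on the cKO arrays, against 0.02, 0.11 and -0.13 on the control arrays. The changes of the 2 peptide genes thus differed by 1.34 on the log2 scale, again as a description of a pair chosen with its changes known.

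Sytl2 encodes a synaptotagmin-like protein that binds Rab27 on secretory granules and helps to dock them at the plasma membrane. Its levels were 9.70, 9.28 and 9.73 on the cKO arrays, against 8.54, 8.37 and 8.26 on the control arrays. All cKO arrays were higher, with cKO 2 the lowest of them. The change was 1.18 ± 0.15, or 2.27-fold (limma, adjusted p = 0.00384). It passed with each array left out, at 1.10 to 1.33, and without control 3 and cKO 2 together (1.26, adjusted p = 0.00509). Without control 3 and cKO 3 together it did not pass (1.04, adjusted p = 0.0706).

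**Figure D2:**
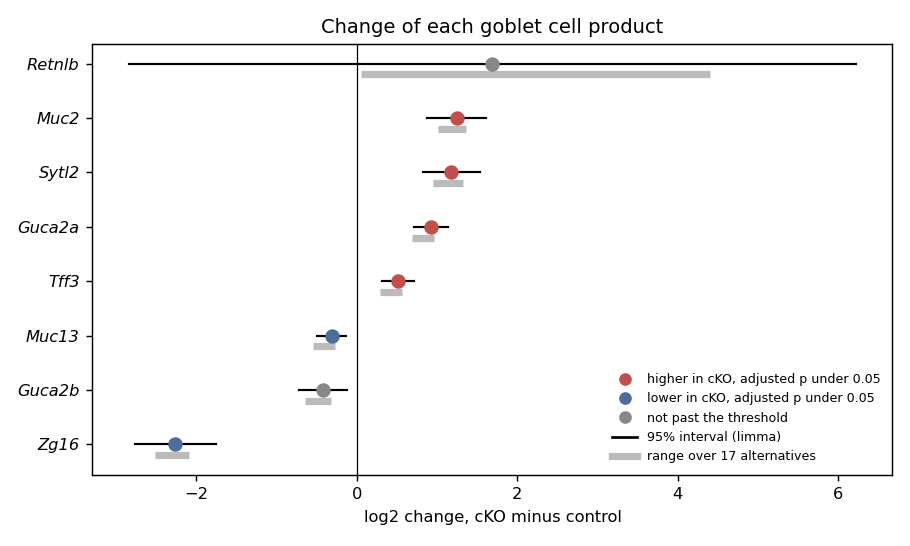
Log2 change of each gene, cKO minus control (point, coloured by call), with limma's 95% interval as a black line and the range over 17 alternative settings as a grey bar. Muc2, Sytl2, Guca2a and Tff3 stay right of 0 and Zg16, Muc13 and Guca2b left of 0 over these settings, while the interval of Retnlb runs from -2.84 to 6.22.

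Markers of 2 other epithelial cell types, absorptive and enteroendocrine cells, were lower on every cKO array. Absorptive enterocyte markers averaged 12.21, 11.93 and 12.13 on the cKO arrays and 13.05, 13.06 and 13.15 on the control arrays. Of 7, 6 were called lower, against 7.42% of all genes. The brightest of these, the apolipoprotein gene Apoa1, had levels of 13.16, 13.45 and 13.07 in cKO and 13.68, 13.67 and 13.72 in control epithelium. Enteroendocrine markers averaged 8.83, 8.45 and 8.91 on the cKO arrays and 9.69, 9.70 and 9.66 on the control arrays. Of 8, 7 were called lower, and the other, Chgb, changed by -0.32 (limma, adjusted p = 0.132). Their brightest, the granin gene Chga, had levels of 9.92, 9.93 and 10.13 in cKO and 11.21, 11.06 and 10.96 in control epithelium. Zg16, Muc13 and Guca2b were also lower on every cKO array. Paneth cell markers overlapped, at 8.41, 9.05 and 8.34 on the cKO arrays and 9.07, 8.87 and 8.53 on the control arrays. The 9.05 was on cKO 2, where Lyz1 was at 10.56, against 7.58 and 7.27 on the other cKO arrays. Of 4 Paneth markers, 1 was called lower and 3 did not pass. Defa24, the 1 called lower, changed by -1.39 (limma, adjusted p = 0.00176), with every cKO array below every control array. Tuft cell markers averaged 7.20 to 7.56 in cKO and 6.95 to 7.14 in control epithelium. Of 6, 1 was called higher and 1 lower, against 5.52% and 7.42% of all genes. Their median change was -0.03, and 2 of the 6 had positive changes. These were Rgs13 (1.91), called higher, and Gfi1b (0.44), at 10.35 on cKO 2 against 7.65 and 7.63 on the other cKO arrays. Dclk1, Trpm5, Avil and Pou2f3 changed by -0.06, -0.003, -0.22 and -0.39. The part of these cell types in the changes of the goblet cell products was not tested.

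Markers of cells outside the intestinal epithelium differed in another way. Smooth muscle markers averaged 8.93, 8.49 and 7.81 on the cKO arrays and 7.45, 7.45 and 7.50 on the control arrays, and the groups did not overlap. Of 6, 1 passed the threshold (Actg2), while the brightest, the actin gene Acta2, had levels of 10.99, 10.49 and 9.07 in cKO and 8.43, 8.40 and 8.54 in control epithelium. Mesenchymal markers averaged 8.88 to 9.67 in cKO and 8.42 to 8.93 in control epithelium, with 0 of 6 past it. Hepatocyte markers were highest on cKO 2, at 13.06 against 8.26 and 8.44 on the other cKO arrays, and averaged 10.21, 8.01 and 11.67 on the control arrays. Erythroid and immune markers also averaged highest on cKO 2, at 11.52 and 9.49. Of 6 immune markers, 0 were called higher and 1 lower. That 1 was Csf1r, at 7.84, 9.12 and 7.54 in cKO and 10.26, 10.30 and 10.60 in control epithelium. Gastric mucous cell markers averaged 7.84 to 7.93 in cKO and 7.82 to 8.04 in control epithelium, and 0 of 6 passed. Enteric neuron and glia markers averaged 7.89 to 8.10 in cKO and 8.45 to 8.52 in control epithelium, with 1 of 4 called lower. That was Ret, with a change of -1.40, while Tubb3 (-0.56), Sox10 (-0.05) and Elavl4 (0.10) did not pass. Sox10 and Elavl4 overlapped between the groups. Over all genes, 5.52% were called higher and 7.42% lower.

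**Figure D3:**
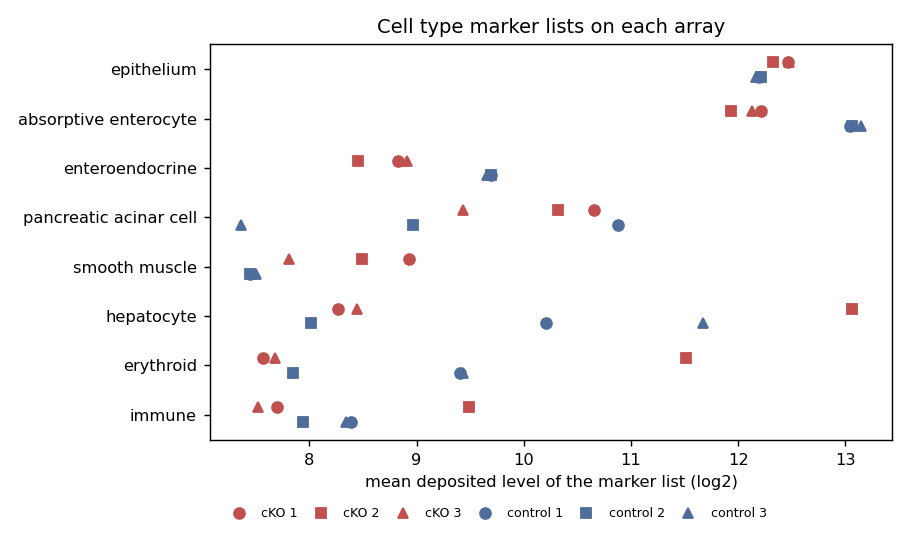
Mean deposited log2 level of 8 cell type marker lists on each array, with cKO arrays drawn above control arrays and symbols for the 3 arrays of a group. Absorptive enterocyte and enteroendocrine markers are lower on every cKO array, while hepatocyte, erythroid and immune markers are highest on cKO 2 (13.06, 11.52 and 9.49).

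Transcription factors of the goblet lineage were mostly higher in the cKO epithelium. Of 11 measured, 10 rose and 0 fell, with a median change of 1.11, against -0.01 over all genes. The counts of the 8 related lists, of which this is the first, compare with 5.52% of all genes called higher and 7.42% called lower. Creb3l1, a membrane-bound factor of secretory cells, changed by 1.76 ± 0.18 (adjusted p = 0.00186), the forkhead factor Foxa1 by 1.58 ± 0.15 (adjusted p = 0.00161) and its relative Foxa3 by 1.11 ± 0.11 (adjusted p = 0.00175), by limma. The 1 gene that did not pass was Xbp1, a factor of the secretory stress response, with a change of 0.07 (adjusted p = 0.680). The count that rose was between 7 and 10 with 1 array left out, and 4 without control 3 and cKO 3 together.

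The further goblet cell products showed a similar count. Of 10 measured, 8 rose and 0 fell, with a median change of 0.81. Lrrc26, a subunit that tunes potassium channels of secretory cells, changed by 1.22 (adjusted p = 0.00165). Ern2, a stress sensor found in mucous epithelia, changed by 1.37 (adjusted p = 0.00274), and the disulfide isomerase gene Txndc5 by 0.82 (adjusted p = 0.00308). Spink4 and Ang4 did not pass, with changes of 0.24 and 0.08. Without control 3 and cKO 3 together, 3 of the 10 passed. This list, like the others here, was drawn up with earlier results of these data known.

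Of 10 other mucins measured, 4 rose, 1 fell and 5 did not pass, with a median change of 0.28. Over all genes 5.52% were called higher and 7.42% lower. Muc1, a membrane mucin, had levels of 9.10, 9.20 and 9.12 on the cKO arrays and 7.77, 7.74 and 7.72 on the control arrays. Its groups were far apart for their spread, and the change was 1.40 ± 0.07 (limma, adjusted p = 0.000194). Muc20, another membrane mucin, changed by 1.15 ± 0.10 (adjusted p = 0.00107), and the gel-forming Muc19 by -0.53 ± 0.10 (adjusted p = 0.018). The call of Muc19 was lost without cKO 3, without control 3, and without control 3 together with cKO 2 or cKO 3. It was also lost with the mean over all probe sets of the gene. Over the alternative settings the change of Muc19 ran between -0.76 and -0.17. The count that rose was 2 with any array other than cKO 2 left out, and 2 with arrays centred on epithelial markers, where the median was 0.05.

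None of the gel-forming mucin genes beside Muc2 on chromosome 7 passed. Muc6 changed by 0.01 (adjusted p = 0.967), Muc5ac by 0.18 (adjusted p = 0.311) and Muc5b by -0.01 (adjusted p = 0.932), by limma. Their 95% intervals reached at most 0.42, below the 0.88 at the lower end of the interval of Muc2. Muc6, Muc5ac and Muc5b averaged 8.02, 7.44 and 7.06 in cKO and 8.01, 7.26 and 7.07 in control epithelium, near the array medians. Muc2 averaged 12.75 and 11.50. Without a measure of background, it is not known whether such dim probe sets could show a change. The difference between the genes was not tested. None of the 5 other trefoil and resistin-like genes passed, and their median change was 0.12, or -0.11 with arrays centred on epithelial markers. Under that centring 2 of the 5 were called lower, Tff1 (-0.45) and Retn (-0.41). Beside Tff3 on chromosome 17, Tff2 changed by 0.12 (adjusted p = 0.402) and Tff1 by -0.22 (adjusted p = 0.172). Tff2 also lay near the array medians, averaging 7.63 in cKO and 7.51 in control epithelium. Beside Retnlb on chromosome 16, Retnla, dimmer still at 5.10 in cKO and 4.85 in control epithelium, changed by 0.25 (adjusted p = 0.291). Retnlg, next in that order, had scattered levels of 6.40, 8.88 and 10.13 in cKO and 7.14, 5.76 and 8.24 in control epithelium, highest on the third array of each group as for Retnlb. The resistin gene Retn, the remaining member of that list, changed by -0.18 (adjusted p = 0.180).

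**Figure D4:**
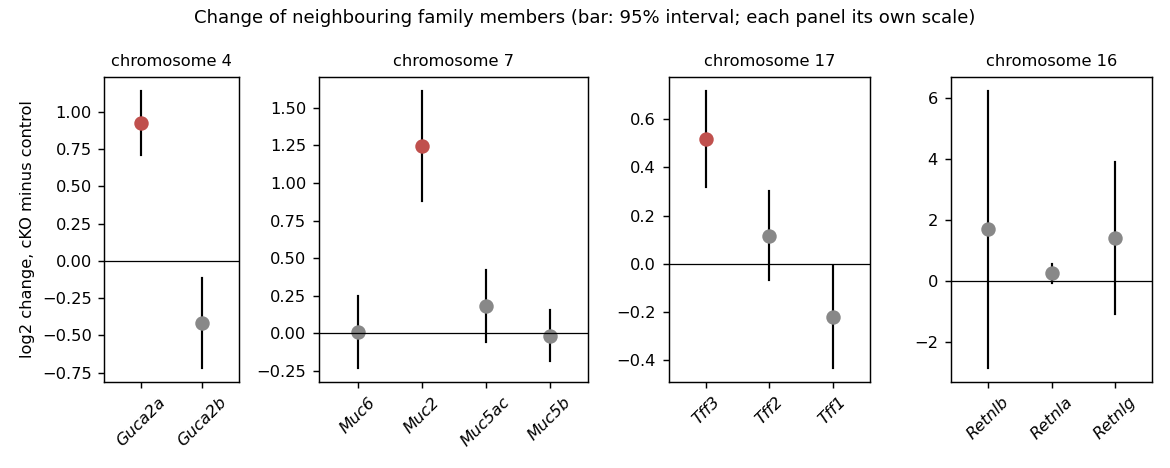
Log2 change, cKO minus control, of neighbouring genes of 4 families in their order on the chromosome, with limma's 95% intervals; points are coloured by call and each panel has its own scale. Guca2a (0.92) and Guca2b (-0.42) lie on opposite sides of 0, Muc2 (1.25) stands above Muc6, Muc5ac and Muc5b, and Retnlb and Retnlg have the widest intervals.

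Enzymes that build mucin sugar chains changed in both directions. Of 21 measured, 10 rose, 4 fell and 7 did not pass, with a median change of 0.60. Chst4, a sulfotransferase, changed by 2.05 ± 0.10 (adjusted p = 0.000174). The fucosyltransferase gene Fut2 changed by 1.72 ± 0.09 (adjusted p = 0.000197), and Galnt5, of the family that starts O-linked chains, by 1.39 ± 0.09 (adjusted p = 0.000423), by limma. The 4 that fell, named after their values were seen, were St6galnac1, St3gal1 and St3gal4, which add sialic acid, and the branching enzyme gene Gcnt4. St6galnac1 and Gcnt4 passed under all 17 alternative settings, and St3gal1 and St3gal4 under 9 each. The call of St3gal1 was among those lost with the mean over all probe sets of a gene. St6galnac2, a relative of St6galnac1, did not pass, with a change of 0.13 (limma, adjusted p = 0.784). St6galnac1 had levels of 7.78, 6.47 and 7.61 on the cKO arrays, against 10.60, 10.39 and 9.78 on the control arrays. This was the largest fall in the list, at -2.97 ± 0.38 (adjusted p = 0.00447). The count that fell was 2 without cKO 3 and without any 1 control array. Without control 3 and cKO 3 together, 4 rose.

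Among proteins that process mucus or share its barrier role, 3 fell. Of 8 measured, 0 rose and 5 did not pass, and the median change was -0.12. Pigr, the receptor that carries IgA to the lumen, changed by -2.50 ± 0.40 (adjusted p = 0.00988). Dmbt1, a scavenger receptor of mucosal surfaces, changed by -1.17 ± 0.19 (adjusted p = 0.0110), and Mep1b, a subunit of the protease meprin, which in mouse cuts Muc2, by -1.05 ± 0.21 (adjusted p = 0.0208). The call of Mep1b was lost without cKO 3 and without any 1 control array. The count that fell was 1 without control 3 and cKO 2 together.

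Of 12 genes of guanylin signalling and its transport targets, 1 rose, 4 fell and 7 did not pass, with a median change of -0.10. Over all genes 5.52% were called higher and 7.42% lower. The receptor gene Gucy2c changed by -0.08 ± 0.09 with a 95% interval of -0.31 to 0.14 (limma, adjusted p = 0.639), which leaves room only for changes smaller than that of Guca2a. Slc9a3, the sodium-proton exchanger that guanylin signalling inhibits, had levels of 7.90, 7.50 and 7.90 on the cKO arrays, against 11.38, 11.03 and 11.45 on the control arrays. It was 11.5-fold lower, a change of -3.52 ± 0.16 (adjusted p = 0.00016). Cftr, the chloride channel that the same pathway opens, had levels of 11.15, 11.29 and 11.42 on the cKO arrays and 10.09, 10.27 and 9.96 on the control arrays. It rose by 1.18 ± 0.11 (adjusted p = 0.00149). Slc26a3, an apical chloride-bicarbonate exchanger, changed by -0.96 ± 0.13 (adjusted p = 0.00521). The count that rose was 2 without cKO 3. The count that fell was 2 without control 3 and cKO 3 together and 6 with arrays centred on epithelial markers, where the median was -0.33.

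Of 19 genes of granule docking and release, 6 rose, 3 fell and 10 did not pass, with a median change of 0.27. Over all genes 5.52% were called higher and 7.42% lower. Genes of granule GTPases, among them those of Rab27, to which synaptotagmin-like proteins bind, rose as Sytl2 did. Rab27b changed by 1.26 ± 0.11 (adjusted p = 0.0012), Rab27a by 1.22 ± 0.11 (adjusted p = 0.00133) and Rab3d by 0.79 ± 0.07 (adjusted p = 0.00132), by limma. Of the other synaptotagmin-like genes, named after their values were seen, Sytl3 fell by 1.25 (adjusted p = 0.00309) and Sytl4 rose by 0.53 (adjusted p = 0.0203). Sytl1 and Sytl5 did not pass, with changes of 0.04 and 0.27. With arrays centred on epithelial markers 4 rose and 6 fell, and the median was 0.04. Without control 3 and cKO 3 together, 3 of the 19 rose and 0 fell.

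**Figure D5:**
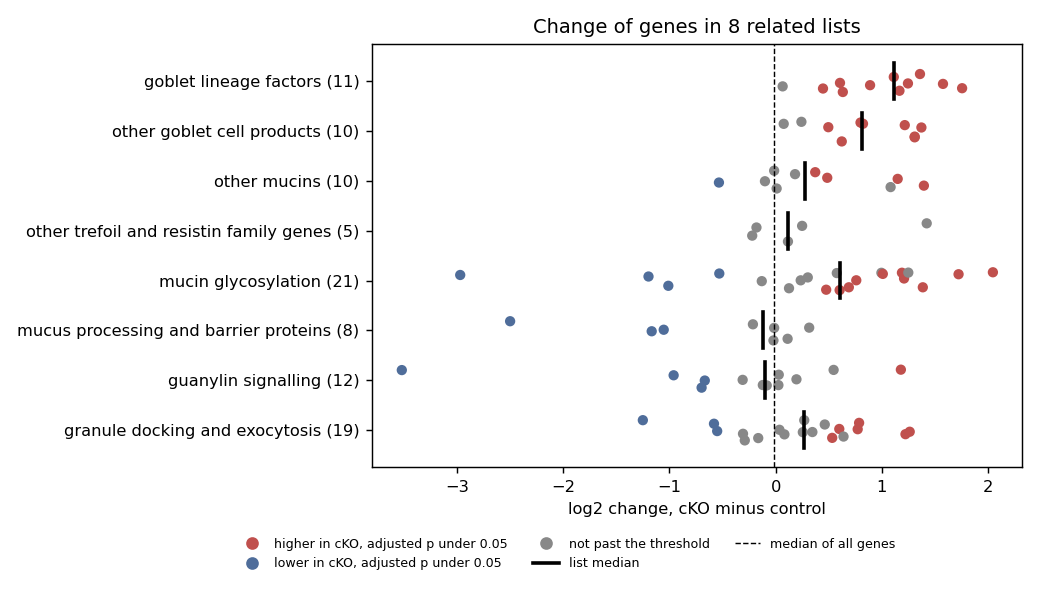
Log2 change, cKO minus control, of every measured gene in 8 related lists (points, coloured by call; number measured in brackets), with the list median as a black bar and the median of all genes as a dashed line. Goblet lineage factors and other goblet cell products have medians of 1.11 and 0.81, while the barrier proteins and guanylin signalling have medians of -0.12 and -0.10.

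The genes nearest to Muc2 in profile were found from the root mean square difference of log2 levels over the 6 arrays, each gene centred on its own mean. They were Mpzl1 (0.0394), Rap1gap (0.0593) and Elapor1 (0.0690). Mpzl1 had levels of 11.47, 11.28 and 11.47 on the cKO arrays, against 10.42, 10.32 and 9.90 on the control arrays, with control 3 again lowest. Those nearest to Zg16 were Ifi27l2b (0.130), Pfkfb4 (0.136) and Cidec (0.137). Pfkfb4 had levels of 8.72, 8.33 and 8.27 on the cKO arrays, against 10.56, 10.60 and 10.59 on the control arrays, so cKO 1 was the highest cKO array here as for Zg16. Among the goblet cell products themselves, Muc13 and Guca2b were closest, at 0.105, followed by Muc2 and Sytl2, at 0.130. Muc2 and Zg16 were 1.78 apart. Retnlb was at least 2.39 from each of the others. Each distance takes in the difference between the groups as well as the spread within them.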

How the data were processed

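The authors deposited log2 levels of 35512 probe sets on 6 Affymetrix Mouse Gene 1.0 arrays, made with dChip, per the series text. Neither the dChip version nor its background correction and normalization is stated in the sources used here. No label states the log base: it was inferred from the span of the levels, 0 to 14.25, so each fold change rests on that inference, and centring is unknown. Without detection calls, no level could be set against background.

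Gene names came from the platform annotation, in which 21789 probe sets have 1 gene, 1621 several and 12102 none. One probe set per gene gave 19938 genes. Groups came from the source names. The groups were compared by limma 3.58.1 under R 4.3.3 (two-sided moderated test from lmFit and eBayes, no covariate), with Benjamini-Hochberg adjustment across the 19938 genes and a threshold of 0.05. The fit was tested on simulated data first. The members, gene lists and rules were chosen with earlier results of these data known. Besides the members, the text names Gata4, Gata6, of each of the 8 related lists the 3 genes with the smallest adjusted p, the 3 nearest profiles to Muc2 and to Zg16, and the brightest marker of a list that moved. Others were named after their values were seen. With 3 arrays per group the number of arrays limits the precision. Alternatives covered normalization, centring, an offset of 32, dim genes, array weights, a replicate block, other probe sets and arrays left out. Columns left unused numbered 0.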

Additional observations from a re-analysis of the deposited data

How the results depend on the processing

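Muc2, Zg16 and Guca2a kept their direction and stayed past the threshold under all 17 alternatives, with changes of 1.02 to 1.37, -2.51 to -2.09 and 0.69 to 0.97. No measured member changed sign under any of the 17. Some of these settings could not turn a sign. Leaving out dim genes, the trended prior, the replicate block and the mean over probe sets left each member's change as it was. Of all genes, 2580 passed, and with 1 array left out between 1482 (without control 2) and 2281 (without cKO 2) passed; 1449 passed with the replicate block, 1586 without control 3 and cKO 2 together and 669 (342 higher, 327 lower) without control 3 and cKO 3 together, a pair chosen after seeing the data, where 4 arrays remain. Centring on epithelial markers moved the median of all genes to -0.24 and gave 6282 calls, 666 higher and 5616 lower, against 1101 and 1479. That centring turned the median of the other trefoil and resistin genes (0.12 to -0.11) and the balance of granule docking genes, with 4 higher and 6 lower against 6 and 3. The members called higher numbered 2 without control 3 and cKO 3, where Tff3 (0.48) and Sytl2 (1.04) were lost. Those called lower numbered between 1 and 2 with 1 array left out. They numbered 1 under quantile normalization, median centring, the replicate block and both pairs left out, where Muc13 did not pass at -0.32, -0.32, -0.31, -0.27 and -0.31, and it ran between -0.35 and -0.27 with 1 array left out. Guca2b passed with epithelial centring (-0.65) and with a trended, robust prior (-0.42), and ran between -0.54 and -0.32 with 1 array left out. With the replicate block Tff3 was lost (0.52, adjusted p = 0.0565) and Retnlb passed (1.69, adjusted p = 0.0240). No label says whether the replicate numbers pair the samples. Over all genes, deviations from the group means correlated at -0.02, -0.42 and -0.18 between same-numbered arrays. With 3 arrays per group these values cannot settle whether the samples were paired. The causes of these differences were not tested. Signal over background is unknown, so what dim probe sets can show is not known.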
